A study of Rattus norvegicus with 24 samples.

Results

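The receptors described here are those of the natural killer (NK) cell families Klr and Ly49 in the rat, together with Kir3dl1, Ncr1 and Ncr3. They were found by gene symbol: every probe set that carried exactly 1 symbol, with a symbol starting Klr or Ly49 or equal to 1 of the other names. This gave 29 probe sets for 28 genes among the 29214 probe sets of the table. Klra22 had 2 probe sets, and each gene was represented by the probe set with the highest mean over the blood arrays. Another 5 probe sets carried several symbols of the family and were left out. Signs were given by what is known of each receptor, except that Ly49 genes were assigned by symbol alone (Ly49s activating, Ly49i inhibitory). In this way 10 members were counted as activating and 9 as inhibitory. Another 9 were given no sign because they are partner chains or their sign was not certain from the name. Ly49si1 was counted with the activating receptors by its name, which carries the mark of both kinds.

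The arrays compare rats that inhaled formaldehyde, an irritant gas, with rats that did not. Male Fischer rats, about 8 weeks old when the study began, sat in nose-only tubes and breathed 2 ppm formaldehyde for 6 hours a day over 7 or 28 days. The vapour came from [13CD2]-paraformaldehyde. Control rats of the same strain, sex and age spent the same time in tubes that held room air. Nasal tissue came from the maxilloturbinate, and white blood cells came from heparinised heart blood separated in cell preparation tubes. Total RNA of each was hybridised to Affymetrix arrays, 3 arrays in each of 8 groups of tissue, day and exposure, 24 in all, so precision is limited by having 3 arrays a group. Nothing in the labels states that replicates came from separate animals, and the p-values therefore cover only the spread between these arrays, which may be technical.

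NK cells kill stressed, infected or transformed cells, and the balance of their activating and inhibitory surface receptors decides whether they do. In rodents most of these receptors are C-type lectin-like proteins whose genes lie together in the NK gene complex. Many recognise MHC class I or related molecules on other cells. Inhibitory members carry a tyrosine motif in the cytoplasmic tail that recruits phosphatases. Activating members have a short tail and signal through adaptor proteins, chiefly Tyrobp (DAP12) and Hcst (DAP10). Some T cells carry a part of the same receptors, so none of the lectin-like members alone marks an NK cell.

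All 28 members were matched by gene identifier to RefSeq (assembly GRCr8). There, 25 of them lay on chromosome 4, in an order that began with Klrg1, Klrb1a and Klrb1b and ended with Klra5, Ly49i7 and Klra2. Kir3dl1 and Ncr1 lay on chromosome 1, and Ncr3 on chromosome 20. The Ly49 genes and the Klra genes are near copies of each other, so a probe set of one may also bind RNA of another, and their values are uncertain to that extent.

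The promoters of 24 members, the 250 bases before the annotated start, were in the RefSeq table. They were searched on both strands for short motifs of factors known in NK cells. The RUNX motif TGTGGT was found in 7 of the 24, against 14.5% of all 33469 promoters of that length. The ETS motif AGGAAG was found in 6 of the 24, against 29.5% of all. The AP-1 motif TGANTCA was found in the promoter of Klra2 alone, against 6.34% of all. The T-box core GGTGTGA and the longer AGGTGTGA, which contains it, were found in 0 of the 24, against 3.22% and 0.959% of all promoters. In the Kir3dl1 promoter the ETS match, 83 bases before the start on the opposite strand, overlaps the RUNX match, 78 bases before it. A match is a run of letters and not a shown site, and the absence of a match says nothing about a factor.

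The 5 promoters printed first are among the 7 with a RUNX match, those of genes given array by array in blood below. They are 4 that rose in blood at 28 days and Klrk1, which did not. The others are Ncr3, which did not rise in blood either, and Ly49i2, which was under the filter there. A link of the motif with the rise was not tested. Each is written 5′ to 3′ on the strand of the gene with the match in capitals. Kir3dl1 is at chr1:78796716-78796965, and on chromosome 4 Klrc1 is at chr4:164838447-164838696, Klrc2 at chr4:164819866-164820115, Klri2 at chr4:164947505-164947754 and Klrk1 at chr4:164778383-164778632, all on the minus strand of GRCr8.
Kir3dl1: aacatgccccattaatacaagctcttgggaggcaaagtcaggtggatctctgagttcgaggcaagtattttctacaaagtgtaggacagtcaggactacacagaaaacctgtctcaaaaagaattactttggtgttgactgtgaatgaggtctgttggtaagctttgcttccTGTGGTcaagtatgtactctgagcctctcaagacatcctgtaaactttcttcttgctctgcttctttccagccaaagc
Klrc1: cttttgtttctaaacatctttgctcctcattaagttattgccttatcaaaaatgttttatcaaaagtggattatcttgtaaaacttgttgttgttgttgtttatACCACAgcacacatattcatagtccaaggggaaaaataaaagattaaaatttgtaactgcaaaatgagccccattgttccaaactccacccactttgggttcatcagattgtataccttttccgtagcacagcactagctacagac
Klrc2: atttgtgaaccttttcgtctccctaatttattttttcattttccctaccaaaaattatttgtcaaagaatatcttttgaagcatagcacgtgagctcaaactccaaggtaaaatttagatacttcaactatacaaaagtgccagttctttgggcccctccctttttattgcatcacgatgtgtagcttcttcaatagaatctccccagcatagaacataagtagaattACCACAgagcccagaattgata
Klri2: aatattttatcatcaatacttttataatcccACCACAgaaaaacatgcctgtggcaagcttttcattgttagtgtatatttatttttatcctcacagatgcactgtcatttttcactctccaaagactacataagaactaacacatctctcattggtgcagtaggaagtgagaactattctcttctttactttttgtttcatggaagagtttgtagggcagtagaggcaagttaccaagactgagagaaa
Klrk1: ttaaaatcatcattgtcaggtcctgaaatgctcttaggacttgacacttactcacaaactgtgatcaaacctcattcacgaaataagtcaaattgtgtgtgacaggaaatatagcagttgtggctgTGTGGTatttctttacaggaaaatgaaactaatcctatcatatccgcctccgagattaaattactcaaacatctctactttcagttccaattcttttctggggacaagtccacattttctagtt

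The closest pair among 276 comparisons of member promoters was that of Klra17 and Ly49s6, which were 93.9% identical over an aligned stretch of 228 bases. They are shown because these near copies were measured by separate probe sets, whose blood values are set side by side further on. The capitals mark the 14 positions that differ. Klra17 is at chr4:165550445-165550672 and Ly49s6 at chr4:165790093-165790320, both on the minus strand of GRCr8.
Klra17: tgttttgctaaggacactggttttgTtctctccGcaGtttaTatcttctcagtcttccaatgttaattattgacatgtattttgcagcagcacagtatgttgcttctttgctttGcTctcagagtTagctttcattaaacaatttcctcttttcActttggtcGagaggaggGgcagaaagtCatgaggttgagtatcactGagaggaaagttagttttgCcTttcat
Ly49s6: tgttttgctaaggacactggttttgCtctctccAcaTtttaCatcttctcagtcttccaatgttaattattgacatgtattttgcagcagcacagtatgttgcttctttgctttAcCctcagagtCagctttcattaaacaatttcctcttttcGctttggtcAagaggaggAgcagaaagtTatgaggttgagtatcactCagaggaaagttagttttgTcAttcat

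The labelled tissues were checked against defining markers, as means of log2 intensity over each list. The 10 epithelial markers averaged 9.56 to 11.07 on the nasal arrays and 5.97 to 6.62 on the blood arrays. Olfactory neuron markers were also present on the nasal arrays. The 11 genes averaged 8.85, 10.13 and 9.93 on the 7 day controls, with replicate 1 the lowest, and 11.29 to 11.67 on the 7 day exposed arrays. On the nasal 28 day arrays control replicate 1 stood apart, with an olfactory list mean of 7.38 against 9.71 and 9.47 on the other controls and 9.78 to 10.15 on the exposed arrays, so 28 day results in the nose are also given without it. The 28 day arrays lay on a lower scale than the 7 day arrays. The median intensity of an array was 305 to 312 in nose at 7 days and 163 to 172 at 28 days, and 175 to 181 and 113 to 119 in blood. Levels are therefore compared only within a day. All levels below are log2 intensities as deposited, 3 arrays a group, and all differences are on the log2 scale with the standard error (SE) from limma. A receptor was called higher or lower at a Benjamini-Hochberg adjusted p under 0.05 over all probe sets tested. Probe sets had to reach the 25th percentile of the tissue's means, which was 6.61 in nose and 5.96 in blood, and 8 members in nose and 23 in blood did.

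After 28 days of formaldehyde, 11 of the 23 receptors tested in blood rose and 0 fell (limma), while 3.95% of all probe sets tested were called higher and 1.31% lower in that comparison. Both activating and inhibitory receptors rose: 6 of 9 activating and 4 of 6 inhibitory members passed, and 1 of 8 with no sign assigned. The median difference of the 23 was 0.76, against −0.02 over all probe sets. In bulk RNA of blood, more cells of a type and more RNA per cell cannot be told apart.

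Kir3dl1, the rat member of the immunoglobulin-like KIR family and an inhibitory receptor, had the largest difference. Its level was 5.40, 6.50 and 6.12 on the control arrays and 7.32, 7.65 and 8.03 on the exposed arrays. The groups did not overlap, and the difference was 1.66 ± 0.23 (SE), 3.16-fold, with an adjusted p of 0.00404 (limma).

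Klrc1 encodes NKG2A, which pairs with Klrd1 (CD94) and inhibits on binding nonclassical MHC class I. It read 8.40, 8.87 and 8.70 in controls and 9.62, 9.67 and 10.40 in exposed rats. The exposed arrays were all above the controls, by 1.24 ± 0.19 on average (adjusted p 0.00459, limma). Klri1, an inhibitory receptor, read 7.67, 8.67 and 8.26 in controls and 9.06, 9.18 and 10.07 in exposed rats. It rose by 1.24 ± 0.28 (adjusted p 0.0235, limma), with a wider spread in both groups than Klrc1 had. Klrg1, an inhibitory receptor of mature NK and T cells that binds cadherins, had tight controls at 8.06, 8.25 and 8.17. Its exposed arrays read 8.85, 9.19 and 9.40, and the difference was 0.99 ± 0.14 (adjusted p 0.00431, limma).

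The other 2 inhibitory receptors tested did not pass. Klrb1b, an inhibitory NKR-P1 receptor, read 8.13, 9.39 and 7.95 in controls and 8.31, 8.18 and 8.65 in exposed rats, a difference of −0.11 with a 95% interval from −0.74 to 0.52. Its second control array stood above every exposed array, and without that array the difference was 0.34. Ly49i7 differed by −0.10, interval −0.40 to 0.20.

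Among the activating receptors, Klrc2 and Klrc3 encode chains of the NKG2 group that also pair with Klrd1. Klrc2 was at 8.41, 9.08 and 8.50 in controls and 9.30, 9.58 and 10.29 in exposed rats, a rise of 1.06 ± 0.23 (adjusted p 0.0198, limma). Klrc3 was at 10.14, 10.56 and 10.30 in controls and 11.03, 11.28 and 11.84 in exposed rats, a rise of 1.05 ± 0.18 (adjusted p 0.00673, limma). Both sets of exposed arrays lay wholly above their controls. Klri2, the activating counterpart of Klri1, was at 9.20, 9.69 and 9.34 against 9.99, 10.11 and 10.82, and rose by 0.89 ± 0.20 (adjusted p 0.0263, limma).

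Ncr1 encodes NKp46, a natural cytotoxicity receptor found on nearly all NK cells. Controls read 8.21, 8.78 and 8.51 and exposed arrays 8.95, 9.23 and 9.99, a rise of 0.89 ± 0.23 (adjusted p 0.042, limma). Klrb1a, the activating receptor NKR-P1A, by which rat NK cells are commonly stained, read 9.94, 10.20 and 10.34 in controls and 10.70, 10.89 and 11.36 in exposed rats. The groups were apart, with a rise of 0.82 ± 0.16 (adjusted p 0.0118, limma). Ly49s6, an activating Ly49 receptor, read 8.43, 8.82 and 8.48 in controls and 9.02, 9.24 and 9.76 in exposed rats, a rise of 0.76 ± 0.18 (adjusted p 0.0296, limma).

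Of the activating receptors that did not pass, Klrk1 and Ncr3 had differences near 0. Klrk1 encodes NKG2D, the receptor for stress-induced MHC-like ligands, which is also carried by T cells. Its controls read 11.74, 11.72 and 11.90 and its exposed arrays 11.89, 11.49 and 11.99. The groups overlapped, with a difference of 0.0031 and a 95% interval from −0.26 to 0.27. Ncr3, which encodes NKp30, differed by 0.00029 (interval −0.22 to 0.22), and Ly49si1 by −0.18 (interval −0.83 to 0.47). The intervals of Klrk1 and Ncr3 lie below 0.76, the smallest difference among the 11 receptors that rose.

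Klre1, a chain that pairs with Klri1 and Klri2, was the member without a sign that rose. It read 6.13, 6.34 and 6.38 in controls and 6.98, 7.07 and 7.62 in exposed rats, a difference of 0.94 ± 0.17 (adjusted p 0.00892, limma). Klrd1, the common partner of the NKG2 chains, read 9.82, 10.09 and 10.01 in controls and 10.37, 10.23 and 10.92 in exposed rats. Its exposed arrays were all above its controls, yet the difference of 0.53 ± 0.15 did not pass (adjusted p 0.0772, limma). Its NKG2 partners Klrc1, Klrc2 and Klrc3 thus had differences of 1.05 to 1.24 beside 0.53 for the shared chain. Whether these differences differ from each other was not tested. Klra1 (0.76), Klrb1 (0.41), Klra22 (0.43) and Klrb1c (0.38) did not pass either, although their groups were apart.

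Klra17 and Ly49s6 are the pair with near-identical promoters. At 28 days in blood Klra17 read 7.31, 7.70 and 7.92 in controls and 7.57, 7.08 and 8.02 in exposed rats, a difference of −0.088 (interval −0.67 to 0.50) beside 0.76 for Ly49s6. The intervals of these differences overlap (0.37 to 1.15 for Ly49s6), and whether the differences themselves differ was not tested. Klra2 read 5.92, 8.20 and 6.19 in controls and 6.13, 5.90 and 6.55 in exposed rats, a difference of −0.58 (interval −1.65 to 0.49). As with Klrb1b, the second control array alone was high, and without it the Klra2 difference was 0.14.

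**Figure D1:**
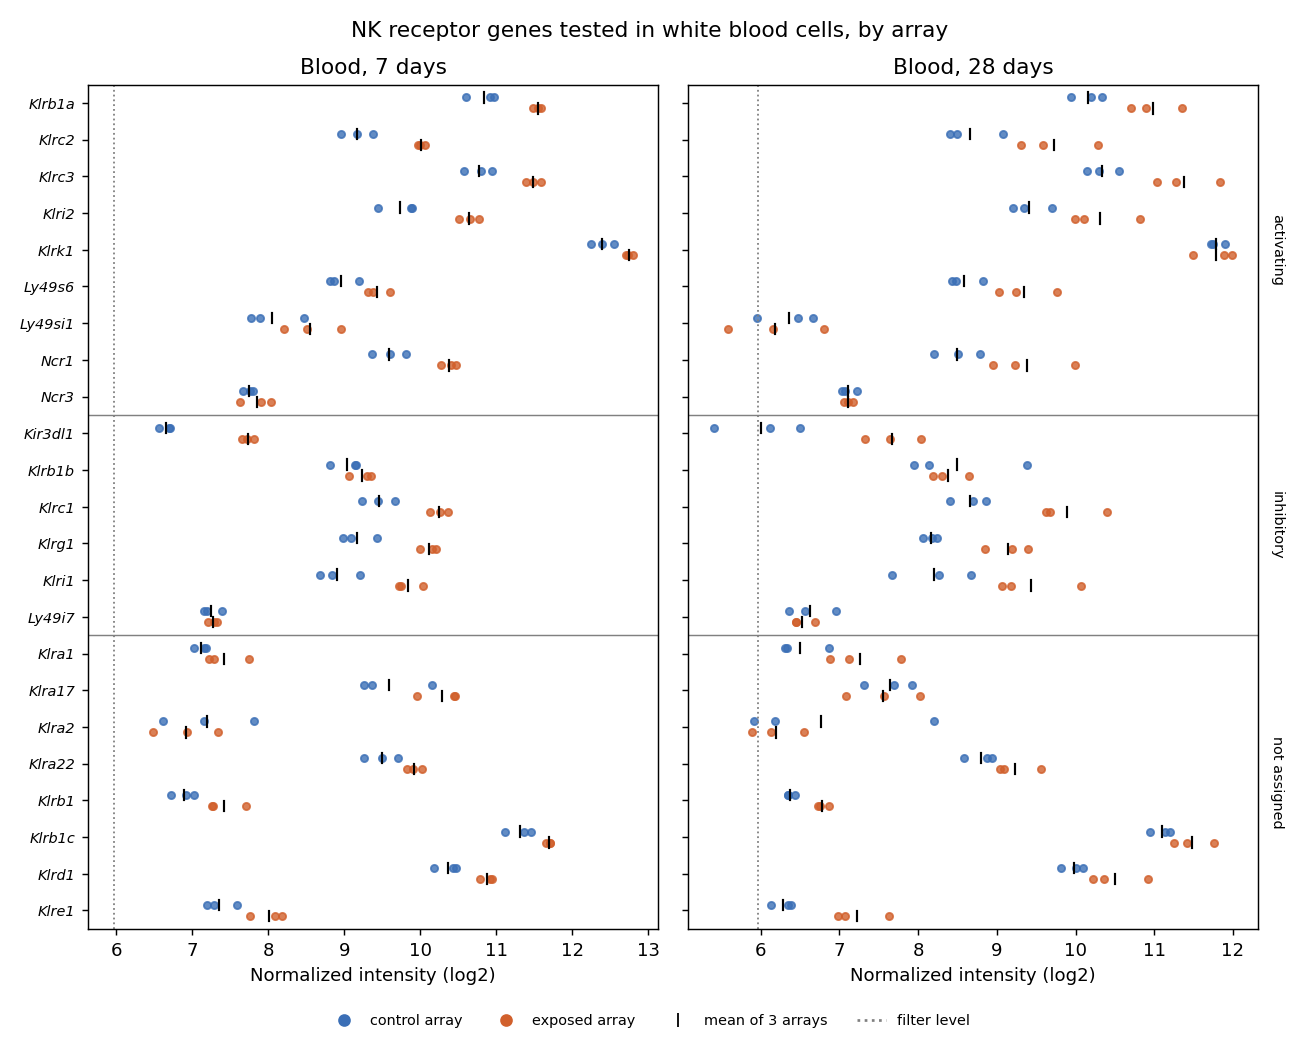
Log2 intensity (horizontal axis) of the 23 receptors tested in white blood cells, 1 row per gene, at 7 days (left) and 28 days (right); points are the 3 control (blue) and 3 exposed (orange) arrays, black strokes their means, and the dotted line the filter level of 5.96. At 28 days the exposed arrays of Kir3dl1 (7.32 to 8.03) lie above all controls (5.40 to 6.50), and those of Klrk1 (11.49 to 11.99) overlap with theirs (11.72 to 11.90).

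In all, 16 of the 23 receptors had every exposed array above every control array at 28 days, against 8.77% of all probe sets. The arrays of a group moved together over the family. Exposed replicate 3 was the highest of its group for 22 of 23 members. Control replicate 1 was the lowest of its group for 18 of them and control replicate 2 the highest for 17. Of the 5 members under the filter in blood, Klrh1, Ly49i2, Ly49i3, Ly49s4 and Klra5, none was tested, and their differences ran from 0.14 to 0.78.

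The count of 11 depended on arrays and on which arrays shared the estimate of spread. It was 6 without control replicate 1 or control replicate 3, 7 without exposed replicate 3 and 12 without control replicate 2, and Kir3dl1, Klrb1a, Klrc1, Klrc3, Klre1 and Klrg1 passed in each of the 6 fits without 1 array. These fits called 2.43% to 4.03% of all probe sets higher. In a fit of the 6 arrays of that day alone 0 of 23 passed, and 1 probe set of all 21910 did.

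After 7 days the differences in blood pointed the same way but only Klrg1 passed: 1 of 23 receptors rose, against 0.11% of all probe sets called higher. Klrg1 read 9.44, 8.98 and 9.09 in controls and 10.16, 9.99 and 10.20 in exposed rats. The difference was 0.95 ± 0.14 (adjusted p 0.0313, limma), and it no longer passed in 5 of the 6 fits that left out 1 array. Of the 23 differences 22 were above 0, with a median of 0.53 against 0.04 over all probe sets. An unadjusted p under 0.05 was reached by 17 of 23 members, and by 15.1% of all probe sets in either direction.

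The receptors next in order of p at 7 days were Kir3dl1, Klrb1a and Klri2, and none passed. Kir3dl1 read 6.70, 6.56 and 6.71 in controls and 7.72, 7.81 and 7.65 in exposed rats, a difference of 1.07 ± 0.23 (adjusted p 0.0617, limma). Its arrays agreed closely within each group and the groups were far apart. Klrb1a read 10.92, 10.61 and 10.97 against 11.60, 11.48 and 11.55, a difference of 0.71 ± 0.16 (adjusted p 0.0695, limma). Klri2 read 9.89, 9.44 and 9.88 against 10.77, 10.51 and 10.65, a difference of 0.91 ± 0.20 (adjusted p 0.0701, limma). A fit of the 6 arrays of day 7 alone called 10 of the 23 higher, Kir3dl1, Klrb1a and Klri2 among them, against 0.908% of all probe sets.

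Groups did not overlap for 17 of 23 members at 7 days, all with the exposed arrays higher, against 19.5% of all probe sets. On both days 16 members had every exposed array above every control array, against 2.49% of all probe sets. The 2 days share no arrays, but the members moved together by array at 28 days. At 7 days control replicate 2 was the lowest of its group for 18 of 23. The 16 members are therefore not separate results. Klrk1 was at 12.54, 12.25 and 12.39 in 7 day controls and 12.74, 12.71 and 12.79 in exposed rats, with groups apart and a difference of 0.35 ± 0.12 (adjusted p 0.204, limma). The difference changed sign between the days for 4 of the 23 members, none of which passed on either day. Klrb1b went from 0.20 to −0.11 and Ly49i7 from 0.027 to −0.10. Klra17 read 9.37, 9.26 and 10.15 in 7 day controls and 10.44, 10.46 and 9.96 in exposed rats, a difference of 0.70, beside −0.088 at 28 days. Ly49si1 read 7.89, 7.77 and 8.47 against 8.95, 8.50 and 8.21 at 7 days (difference 0.51) and 5.95, 6.48 and 6.66 against 6.16, 5.59 and 6.81 at 28 days (difference −0.18). Groups overlapped for Klra17 and Ly49si1 on both days.

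No receptor's blood effect was called different between the days. The 28 day effect minus the 7 day effect passed for 0 of 23 members (limma), with 0 at an unadjusted p under 0.05 against 11.5% of all probe sets, and 0 probe sets of 21910, 0%, passed. The members' values of this difference ran from −0.79 (Klra17, interval −1.61 to 0.04) to 0.59 (Kir3dl1, interval −0.12 to 1.29).

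**Figure D2:**
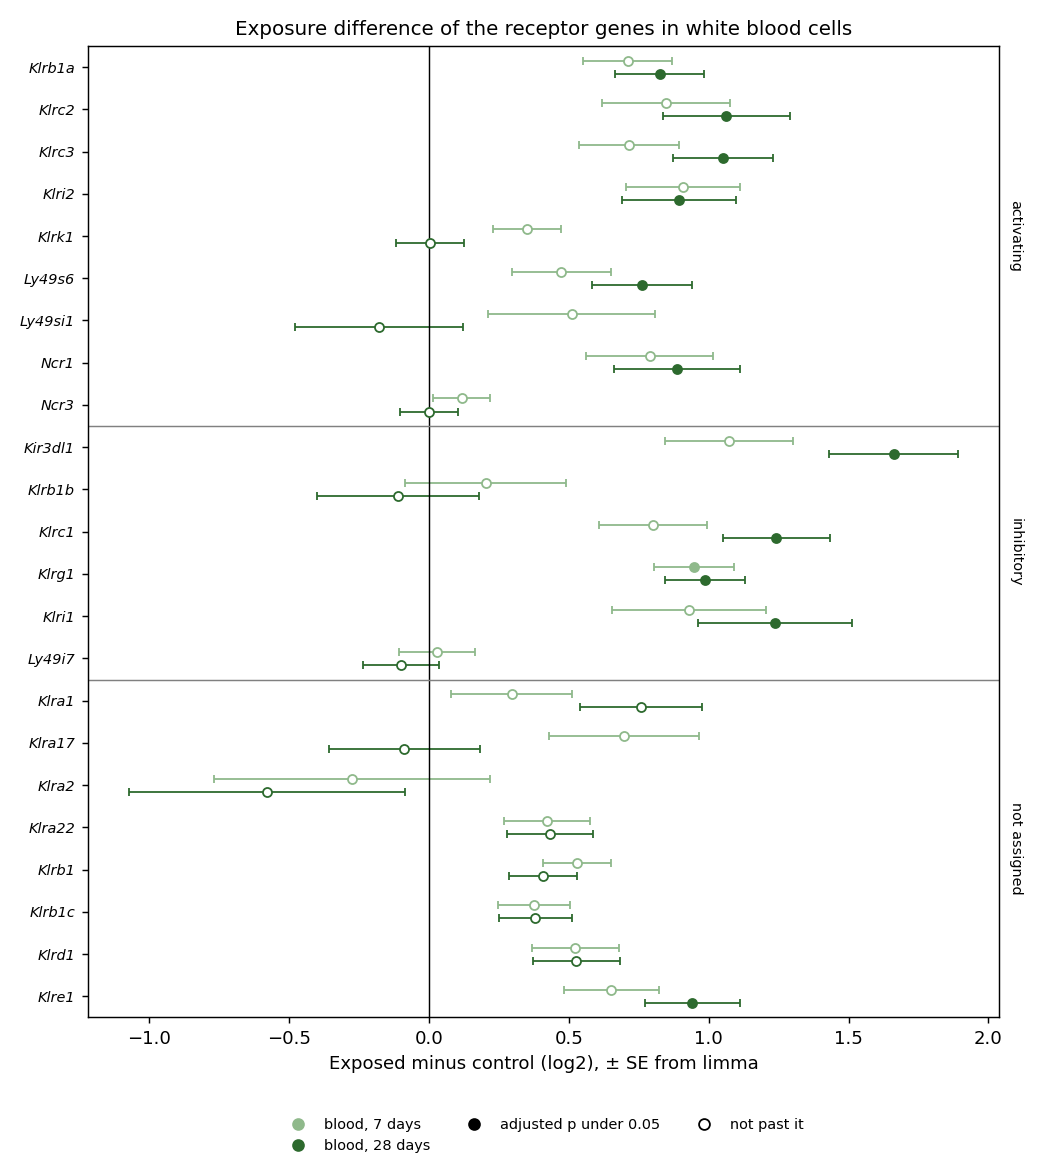
Exposed minus control difference in log2 intensity (horizontal axis) for each of the 23 receptors tested in blood, at 7 days (light) and 28 days (dark), grouped as activating, inhibitory and not assigned; points are limma estimates with bars of 1 SE, filled where the adjusted p was under 0.05. The 28 day differences run from −0.58 (Klra2) to 1.66 (Kir3dl1), 11 of them filled, and 22 of the 23 differences at 7 days are above 0, 1 of them filled.

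In the nose the receptors moved the other way at 7 days: 4 of the 8 tested fell and 0 rose (limma), against 7.84% of all probe sets called lower. Activating Klrk1 and Klrc3, inhibitory Klrb1b and Klra22, a Ly49 receptor, were those that fell. All 8 differences were below 0, with a median of −0.39 against −0.05 over all probe sets. Groups did not overlap for 5 of the 8, against 32.4% of all probe sets with exposed arrays lower.

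Klrk1 (NKG2D) read 8.54, 8.10 and 8.39 in nasal controls and 6.97, 7.39 and 7.42 in exposed rats. The exposed arrays were all lower, and the gene fell by 1.09 ± 0.18 (adjusted p 0.00546, limma). Klrc3 read 7.89, 7.58 and 7.95 in controls and 7.00, 7.04 and 7.20 in exposed rats, and fell by 0.72 ± 0.11 (adjusted p 0.00364, limma). These calls were kept in each of the 6 fits that left out 1 array.

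Klrb1b read 7.23, 7.26 and 7.25 in controls and 6.42, 6.81 and 7.04 in exposed rats. Its exposed arrays were below the controls but spread over a wider range, and it fell by 0.49 ± 0.13 (adjusted p 0.0296, limma). Klra22 read 7.65, 7.49 and 7.50 against 6.97, 7.15 and 7.22, and fell by 0.43 ± 0.13 (adjusted p 0.0456, limma). The second probe set of Klra22, under the filter, showed no fall, with means of 4.69 in controls and 4.75 in exposed rats. The Klrb1b call ended in 5 and the Klra22 call in 6 of the 6 fits without 1 array. Klrb1c, with groups apart and a difference of −0.36, did not pass (adjusted p 0.105, limma). Ncr3 (−0.17), Ly49i7 (−0.17) and Klrg1 (−0.080, interval −0.33 to 0.17) did not pass, and their groups overlapped.

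Most members lay under the filter in the nose, and these 20 were not tested. Their differences at 7 days were below 0 for 18 and lowest for Klrc1 (−0.86), Klra2 (−0.71) and Klrd1 (−0.68). Exposed arrays lay wholly below controls for 8 of the 20, against 14% of all 7304 probe sets under the filter, and wholly above them for Ncr1 (0.19), against 10.6%. When dim probe sets were kept in the fit, 9 of 28 members were called lower, among them Klrc1, Klrd1, Klrc2 and Klrb1a, against 5.62% of all 29214 probe sets.

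After 28 days 0 of the 8 receptors passed in the nose (limma), where 0.00456% of all probe sets, 1 of 21910, were called. That background rests on control replicate 1, the array that stood apart: without it 1081 probe sets, 4.93%, were called and still 0 of the 8 receptors, whose differences then ran from −0.32 (Klra22) to 0.023 (Ly49i7). The filter level of 6.61 applied to the mean over all 12 nasal arrays, and the 28 day arrays lay on the lower scale. At 28 days the means of Klrb1c, Ly49i7 and Ncr3 were under that level in both groups. Klrk1 (6.33) and Klrb1b (6.49) were under it in exposed rats only. The part of dim signal in the 28 day differences was not tested. With all arrays the 8 differences were again below 0 but small, from −0.36 to −0.010, and 1 of the 8 reached an unadjusted p under 0.05, against 15.4% of all probe sets. That receptor was Klra22, at 7.05, 6.77 and 7.13 in controls and 6.37, 6.73 and 6.78 in exposed rats, a difference of −0.35 ± 0.13 (adjusted p 0.242, limma). Klrk1 read 6.81, 6.30 and 6.96 against 6.32, 6.31 and 6.35, a difference of −0.36 ± 0.18 with overlapping groups (adjusted p 0.356, limma). For neither gene was the difference larger than the test asks. Klrb1c, an NKR-P1 receptor, read 6.35, 6.17 and 6.62 against 5.86, 6.24 and 6.20, a difference of −0.28. Klrb1b read 6.72, 6.73 and 6.66 against 6.38, 6.48 and 6.61, a difference of −0.21, and was the 1 receptor of 8 with exposed arrays wholly lower, against 8.7% of all probe sets.

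The nasal effect at 28 days minus that at 7 days passed for 0 of 8 receptors (limma), against 0.1% of all probe sets called in either direction. Without control replicate 1 of 28 days, 12.1% of all probe sets were called, 2648 of 21910, and again 0 of the 8, with Klrc3 (0.55, adjusted p 0.0527) and Klrk1 (0.78, adjusted p 0.0801, limma) closest. With all arrays it was 0.72 ± 0.25 for Klrk1 and 0.58 ± 0.15 for Klrc3 (adjusted p 0.316 and 0.187, limma), which alone among the 8 had an unadjusted p under 0.05, against 13.6% of all probe sets. A smaller fall at 28 than at 7 days was thus not shown for either gene, and Klrk1 read near the filter level at 28 days. At 28 days Klrc3 read 7.20, 7.34 and 7.27 in controls and 7.01, 7.16 and 7.23 in exposed rats, a difference of −0.14. Next in order were Klrb1b (0.28, interval −0.13 to 0.68) and Ncr3 (0.14, interval −0.15 to 0.43). Ncr3 read 6.89, 6.97 and 7.06 against 6.98, 6.78 and 6.65 at 7 days, and 6.45, 6.55 and 6.61 against 6.54, 6.48 and 6.51 at 28 days, with overlap on both.

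**Figure D3:**
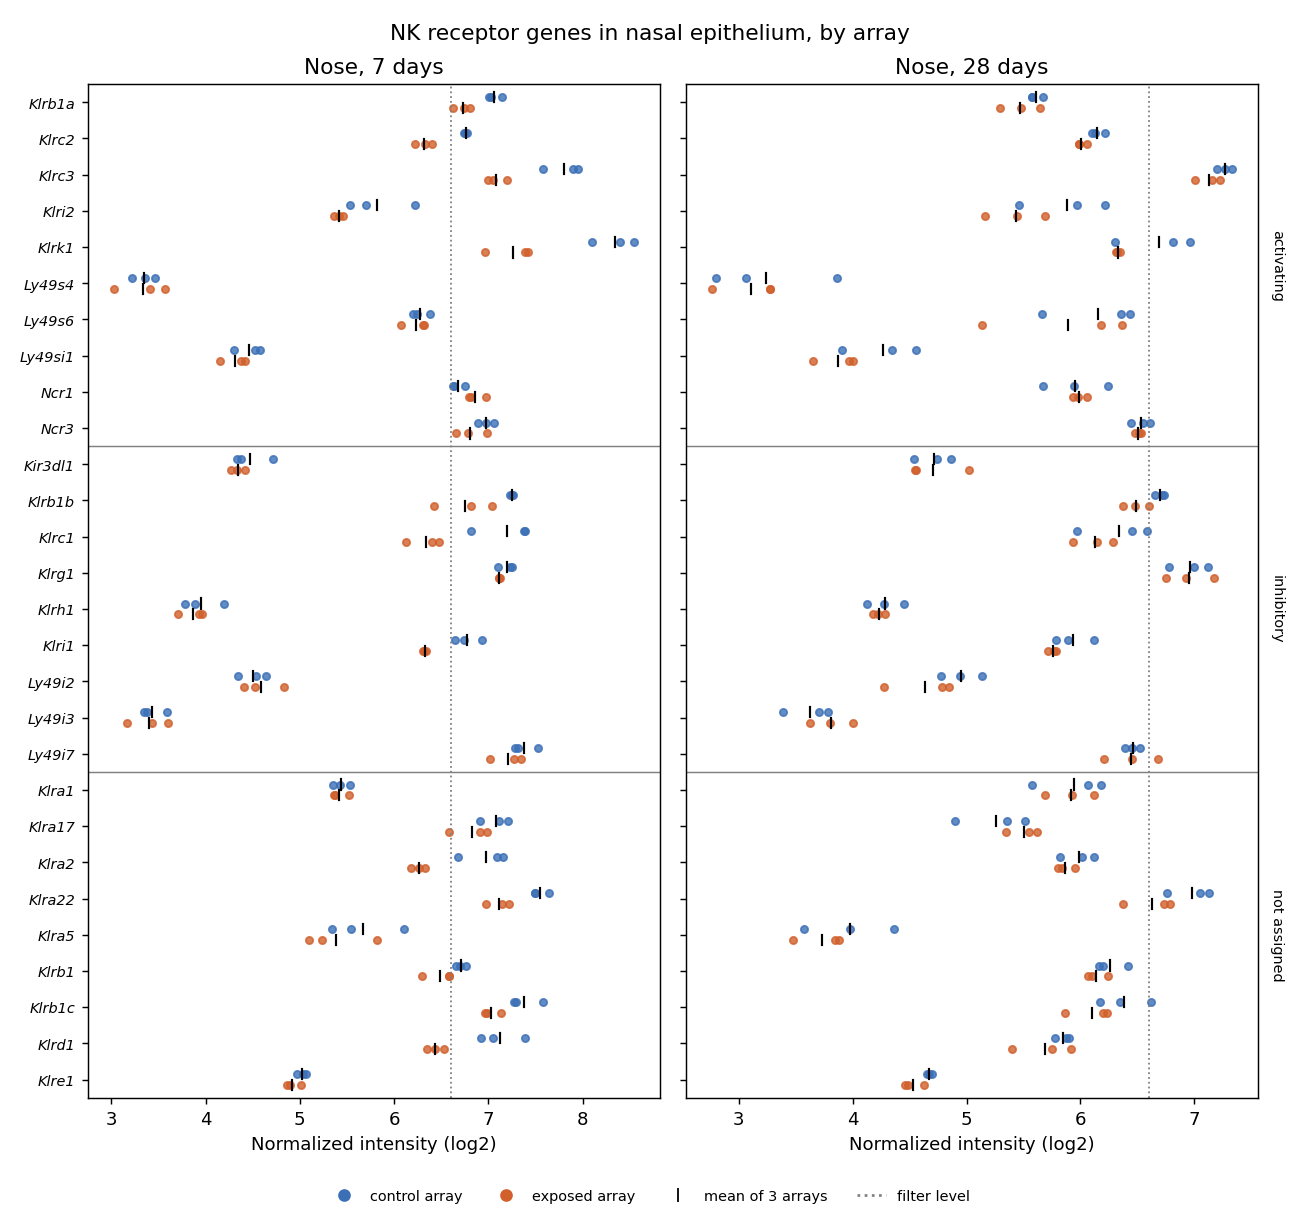
Log2 intensity (horizontal axis) of all 28 receptors on the nasal arrays, 1 row per gene, at 7 days (left) and 28 days (right); points are the 3 control (blue) and 3 exposed (orange) arrays, black strokes their means, and the dotted line the filter level of 6.61, which applies to the mean over all 12 nasal arrays. Klrk1 lies at 8.10 to 8.54 in 7 day controls and 6.97 to 7.42 in 7 day exposed rats, and at 28 days its groups overlap.

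The difference between the tissues was itself tested for the 8 receptors measured in both. At 7 days the nasal effect was below the blood effect for 5 of 8 (limma), against 5.65% of all probe sets. The difference of effects was −1.44 ± 0.22 for Klrk1 (adjusted p 0.00109, limma) and −1.44 ± 0.22 for Klrc3 (adjusted p 0.00105, limma). Klrg1 was at −1.03 ± 0.19, Klra22 at −0.85 ± 0.21 and Klrb1c at −0.73 ± 0.20. Klrb1b (−0.69), Ncr3 (−0.28) and Ly49i7 (−0.19) did not pass. For Klrg1 the nasal difference was −0.080 and the blood difference 0.95, while for Klrk1 they were −1.09 and 0.35. Whether genes differ in the parts of nose and blood was not tested.

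At 28 days the nasal effect was below the blood effect for 3 of 8 (limma), against 3.11% of all probe sets. These were Klrc3 (−1.19 ± 0.22), Klrg1 (−1.003 ± 0.19) and Klra22 (−0.78 ± 0.21). Klrk1, at −0.37 ± 0.22, did not pass (adjusted p 0.363, limma). Klrb1c, at −0.67 ± 0.20, did not pass (adjusted p 0.0517, limma). It passed with the replicate number as a block (adjusted p 0.0328, limma), which gave 4 of 8 receptors against 2.49% of all probe sets, and without nasal control replicate 1 (adjusted p 0.0375, limma), which gave 4 of 8 against 5.59%. In a fit of the 12 arrays of that day alone 0 of 7 members passed, against 0.2% of all probe sets.

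**Figure D4:**
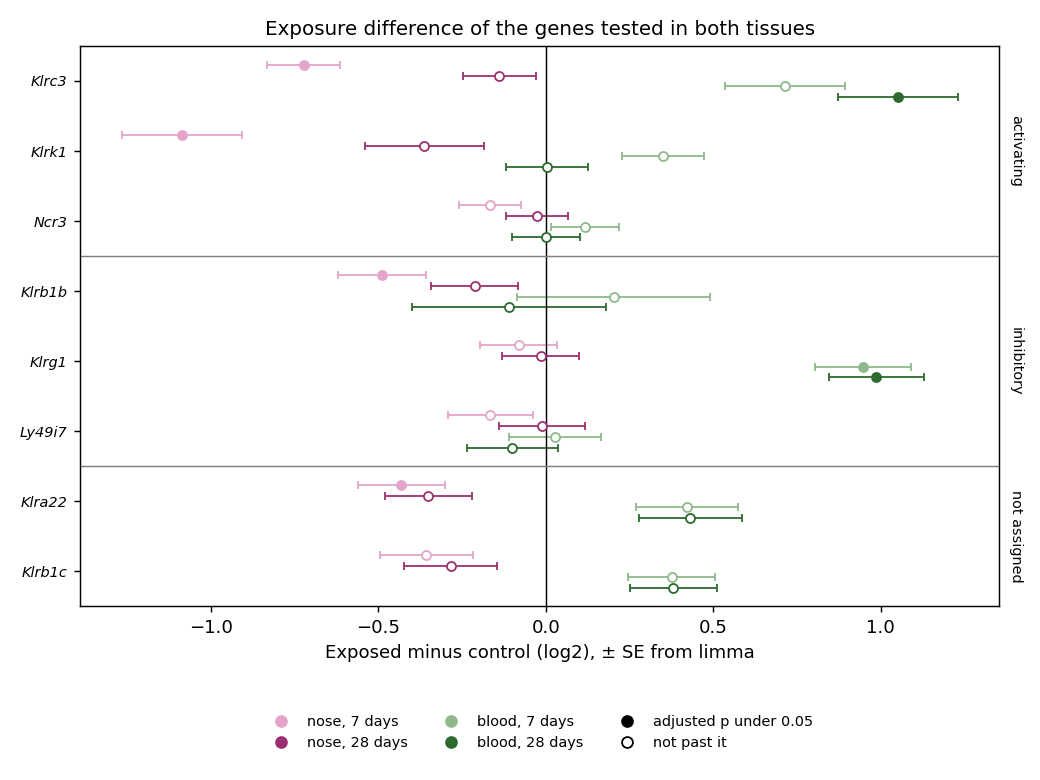
Exposed minus control difference in log2 intensity (horizontal axis) in nose and in blood for the 8 receptors tested in both tissues, at 7 and 28 days; points are limma estimates with bars of 1 SE, filled where the adjusted p was under 0.05. At 7 days Klrk1 is at −1.09 in nose and 0.35 in blood, and Klrc3 at −0.72 and 0.72.

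Among unexposed rats the receptors were higher in blood than in nasal tissue. On each day 7 of 8 were called higher in blood (limma), against 16% of all probe sets at 7 days and 25.8% at 28 days. Klra22 is among the 7, and its probe set was picked for its higher mean on the blood arrays. Its other probe set, under the filter level of both tissues, averaged 4.98 in blood and 4.69 in nasal controls at 7 days. At 28 days these were 4.07 and 3.10. Klrk1 differed most, by 4.05 ± 0.16 at 7 days and 5.10 ± 0.16 at 28 days, followed by Klrb1c at 3.93 ± 0.14 and 4.71 ± 0.14. Klrc3 differed by 2.97 and 3.06. Ly49i7 did not pass on either day, at −0.13 and 0.17, and its 7 day value turned to 0.57 under quantile normalization and 0.68 with arrays centred on their medians. The arrays of the tissues lay on different scales: the median of all probe sets was −0.41 at 7 days and −0.20 at 28 days. It became 0.18 and 0.17 under quantile normalization and 0.41 and 0.33 with centring, and the 7 receptors stayed above it in each. The share of all probe sets called higher in blood moved with the scaling, to 43.8% and 44.7% under quantile normalization and 57.7% and 54.4% with centring, where all 8 receptors were called higher on both days.

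The adaptors and signalling proteins behind the receptors were little changed in blood. At 28 days, where 3.95% of all probe sets were called higher and 1.31% lower, 2 of 20 rose and 0 fell: Ptpn11, which encodes the phosphatase SHP-2 that binds inhibitory tails, by 0.53 ± 0.12, and Sh2d2a by 0.43 ± 0.11 (adjusted p 0.0211 and 0.0458, limma). Tyrobp read 11.39, 11.95 and 11.53 in controls and 11.39, 11.30 and 11.79 in exposed rats, and Hcst 9.31, 9.38 and 9.49 against 9.53, 8.98 and 9.16. Both overlapped between groups, with differences of −0.13 and −0.17. The median of the 20 was 0.0019, against 0.76 over the 23 receptors and −0.02 over all probe sets.

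Other receptors of NK cells rose in 5 of 18 cases at 28 days in blood, with 0 falls and a median of 0.14. All counts of this paragraph stand beside 3.95% of all probe sets called higher and 1.31% lower. They were Il12rb2 (1.15 ± 0.16) and Il12rb1 (0.46 ± 0.09), the chains of the interleukin-12 receptor, Itga2 (1.09 ± 0.14), the integrin chain CD49b, Il18r1 (0.63 ± 0.16) and Cd226 (0.49 ± 0.09), an activating receptor. Of 12 transcription factors of NK cells, Tbx21 (T-bet) rose by 0.63 ± 0.16 (adjusted p 0.0394, limma) and Klf2 fell by 0.62 ± 0.12 (adjusted p 0.014, limma). Of 28 ligands of NK receptors, Pvr, a ligand of Cd226, rose by 0.35 ± 0.09, and the others did not pass. This 1 of 28 is near the share of all probe sets called higher.

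Cytotoxic granule genes rose in 6 of 13 cases at 28 days in blood, with 0 falls, beside the same 3.95% and 1.31% of all probe sets. Perforin (Prf1) was at 10.72, 10.75 and 10.96 in controls and 11.20, 11.37 and 11.43 in exposed rats, with groups apart and a rise of 0.52 ± 0.10 (adjusted p 0.00948, limma). The granzymes Gzmk (0.91), Gzma (0.89), Gzmb (0.81) and Gzmm (0.52) rose, as did Nkg7 (0.44), a granule membrane protein. At 7 days 3 of 13 rose, Gzmk (0.97 ± 0.15), Gzma (0.91 ± 0.16) and Gzmb (0.70 ± 0.13), against 0.11% of all probe sets, and 0 genes of the adaptor, other receptor, transcription factor and ligand lists passed in blood that day.

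Markers of other blood cells also differed between exposed and control arrays at 28 days, and their counts too stand beside 3.95% of all probe sets called higher and 1.31% lower. Of 18 T cell markers 2 fell, Lef1 (−0.52) and Tcf7 (−0.46), while Cd3e differed by −0.12. The T cell list averaged 10.47 to 10.65 on control arrays and 10.13 to 10.57 on exposed arrays. The 6 pan-leukocyte markers averaged 11.67 to 11.80 and 11.44 to 11.69, with 0 past the test. Of 10 neutrophil markers Ngp fell by 1.41 ± 0.31. The 11 genes of that list averaged 7.10, 8.88 and 6.99 on the control arrays and 6.69, 6.51 and 6.09 on the exposed arrays, so control replicate 2 stood apart, the array on which Klrb1b and Klra2 were also high. Of 14 monocyte and macrophage markers Cd68 fell by 1.19 ± 0.27, and the list averaged 8.31 to 8.96 on control and 7.76 to 8.19 on exposed arrays. Platelet markers rose in 3 of 6 cases (Ppbp 0.49, Gp9 0.45, Gp1ba 0.36), with list means of 11.89 to 12.18 and 12.37 to 12.63. Of 9 red cell markers Rhag rose and was the only 1 with a difference above 0, and the list median was −0.15. Of 8 B cell markers Cr2 rose, with 2 differences above 0 and a median of −0.19. Of 8 endothelial markers Kdr rose, with 5 differences above 0 and a median of 0.035. The part of these cells in the receptor differences was not tested. At 7 days in blood Ngp, which fell by 1.75, was the only marker of these lists past the test, against 0.365% of all probe sets called lower. The T cell list averaged 11.08 to 11.34 on control and 11.17 to 11.38 on exposed arrays. The red cell list averaged 12.12 to 12.53 and 11.64 to 11.91, and groups overlapped in the lists of the other cells. The neutrophil list was at 7.81, 8.89 and 7.77 on control and 7.04, 7.97 and 7.57 on exposed arrays. Control replicate 2, high on that list, was the lowest of its group for 18 of 23 receptors. The part of these cells in the 7 day differences was not tested.

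**Figure D5:**
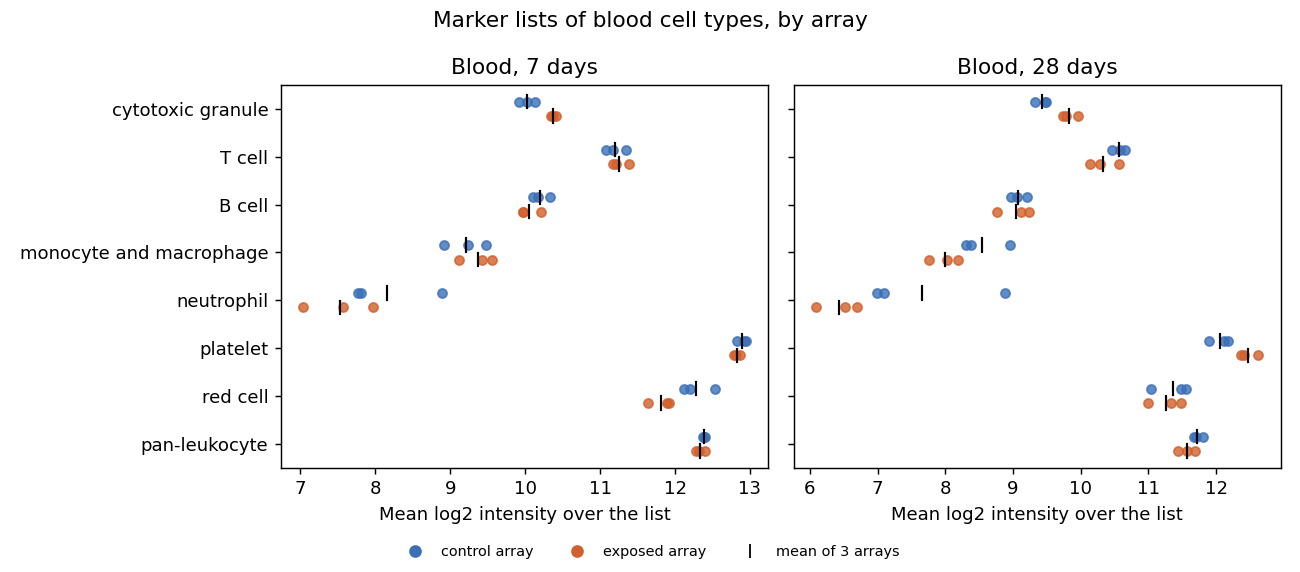
Mean log2 intensity over each of 8 marker lists (horizontal axis) on the blood arrays at 7 days (left) and 28 days (right); points are the 3 control (blue) and 3 exposed (orange) arrays and black strokes their means. At 28 days the neutrophil list is at 7.10, 8.88 and 6.99 on control and 6.69, 6.51 and 6.09 on exposed arrays, and the exposed arrays lie above the controls for the cytotoxic granule and platelet lists.

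In the nose at 7 days the fall was not limited to NK receptors. All counts of that day stand beside 7.84% of all probe sets called lower and 8.43% called higher. Of the adaptors 7 of 17 fell, among them Tyrobp, at 10.02, 9.87 and 10.04 in controls and 9.31, 9.53 and 9.62 in exposed rats, a difference of −0.49 ± 0.11 (adjusted p 0.0159, limma). Of 14 other NK receptors 8 fell, with Itgal, an integrin of all leukocytes, at −0.79, and Itga2 rose by 0.36. Transcription factors fell in 6 of 12 cases and granule genes in 3 of 10 (Tnfsf10 −0.93, Srgn −0.50, Ctsc −0.33), while Prf1 did not pass. Of 27 ligands 11 fell, including Clec2g (−0.77), RT1-CE5 (−0.56), a class I MHC gene, and B2m (−0.30), the class I light chain.

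Markers of several leukocyte types and of vessels fell on the same nasal arrays. Neutrophil and platelet markers were not called lower, with 0 of 5 and 0 of 6 and medians of −0.12 and −0.048. Of the platelet markers 1 rose. Pan-leukocyte markers fell in 5 of 6 cases, with Ptprc (CD45) at −0.93 ± 0.15, and the list averaged 8.80 to 9.06 on control and 8.18 to 8.41 on exposed arrays. Monocyte and macrophage markers fell in 9 of 14 cases, T cell markers in 3 of 12 (Cd3e −0.64), B cell markers in 2 of 5, red cell markers in 4 of 7 and endothelial markers in 8 of 9. Epithelial markers fell in 2 of 10 cases and averaged 10.97 to 11.07 on control and 10.33 to 10.82 on exposed arrays. Olfactory neuron markers rose in 6 of 11 cases, with a median of 1.91. The part of these cells in the receptor differences was not tested. At 28 days in the nose 0 genes of these lists passed (limma) with all arrays, where the comparison called 1 probe set in all, 1081 without control replicate 1. Without that array, an alternative chosen after seeing the data, 8 genes of the 15 lists were called lower, among them Mpeg1, Adgre1 and Lyz2 of macrophages, Laptm5 and Tyrobp, and 1 higher (Bag6), against 2.81% and 2.12% of all probe sets. With all arrays the pan-leukocyte list averaged 7.73 to 7.86 on control and 7.50 to 7.58 on exposed arrays, and the monocyte and macrophage list 8.05 to 8.37 and 7.88 to 7.94.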

How the data were processed

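The values are 1 intensity per probe set and array, deposited by the authors as normalised intensity on a linear scale. Per the submitters' processing notes Partek was used; version, background correction and summarization: not given in the sources used here. Here log2 was taken with no further normalization. Of the probe sets, the platform's gene table gave 1 symbol to 15310, several to 323 and none to 13581. Groups came from the sample titles, with 0 sample columns unassigned.

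In R 4.3.3, limma 3.58.1 (lmFit on 4 group means, contrasts.fit, eBayes, two-sided) took the 12 arrays of each tissue together, or all 24 for differences between tissues, over 21910 and 20096 probe sets at or above percentile 25 of the tissue means. The fitting script was first tested on simulated data, and 10 comparisons were made. The members and the 15 marker and pathway lists were chosen with earlier results of these data known, so no list was tested and no p-value was adjusted over a list. Members past the threshold, or the 4 smallest p-values where fewer passed, are given array by array; of other lists, genes past the threshold and defining markers are named.

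Residuals of same-numbered arrays were compared by their correlation (r). Between control and exposed arrays r ran from −0.348 to 0.247, and was above 0 for every pair only in the nose at 28 days (0.154 to 0.247). No label states a pairing, and these values do not establish one. In the fit of both tissues the block was day and replicate number, which tied nose to blood arrays (r from −0.202 to 0.171). The block changed no nasal call of 28 days and added Klrb1c to the difference between tissues. Alternatives covered the filter, scaling, prior, replicate block, arrays in the fit, threshold, probe sets of a gene and each array left out. Promoters came from RefSeq (GRCr8), and figures were drawn with matplotlib 3.10.9. Protein sequences were not used here.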

Additional observations from a re-analysis of the deposited data

Results flagged for a closer look

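The effect of exposure differed between nose and blood for 5 receptors at 7 days, by the test of the difference itself (limma on all 24 arrays). The nasal effect minus the blood effect was −1.44 for Klrk1, −1.44 for Klrc3, −1.03 for Klrg1, −0.85 for Klra22 and −0.73 for Klrb1c. At 28 days it was −1.19 for Klrc3, −1.003 for Klrg1 and −0.78 for Klra22.

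Among the 5 probe sets that carry several symbols of the family and were left out of the comparisons, 3 passed the threshold. The probe set with the symbols Klra17, Ly49si3, Ly49si2 and Ly49si1 was lower in exposed than in control noses at 7 days, with a difference of −0.73 ± 0.18 (adjusted p 0.0245, limma). The probe set with the symbols Ly49s8 and Ly49s7 was higher in exposed blood at 28 days by 0.83 ± 0.22 (adjusted p 0.0483, limma). That with Ly49s8, Ly49s7 and Klra5 was higher by 0.77 ± 0.19 (adjusted p 0.0375, limma). Which of the genes these probe sets measured was not tested.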

How the results depend on the processing

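With no filter the nasal 7 day count of receptors called went from 4 to 9 of 28 (5.62% of all probe sets called lower), the difference between tissues from 5 to 14 at 7 days (4.76%) and from 3 to 9 at 28 days (1.87%), and the blood and nose control comparison from 7 to 25 and 24 (73.2% and 71.8% of all probe sets in either direction). With a replicate block the nasal 7 day count was 2 (3.2% of all probe sets called lower), the blood 7 day count 0 and the blood 28 day count 7 (1.57% called higher). No label states that same-numbered arrays were paired. Fitted on only the arrays compared, the counts were 10 in blood at 7 days (0.908% of all probe sets called higher), 0 in blood at 28 days, 0 for the difference between tissues at 28 days and 11 of 13 for 7 day controls (18%). At an adjusted p under 0.1 blood at 7 days had 8 (0.945% of all probe sets called higher), and at an unadjusted p under 0.005 with a 1.5-fold difference it had 9 (0.356%) and the nose at 7 days 2 (2.69% called lower). Leaving out each array in turn gave 2 to 3 in nose and 0 to 1 in blood at 7 days, and 6 to 12 in blood at 28 days. It gave 4 to 5 and 2 to 4 for the difference between tissues. Controls kept 7, and the nose at 28 days and the differences between days gave 0 throughout, although without nasal control replicate 1 of 28 days the nose at 28 days called 1081 probe sets in place of 1 and the difference between its days 2648 in place of 22. Ly49i7 between control tissues at 7 days turned from −0.13 to 0.57 (quantile) and 0.68 (centring). Filtering at the median left no receptor tested in the nose. The cause of these changes was not tested beyond the filter, which sets how many receptors are tested.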
